A study of Mus musculus with 22 samples.

Results

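The genes described here are markers used to tell mouse long-term hematopoietic stem cells (LT-HSCs) from related cells, and all but Fgd5 encode surface proteins. Their transcripts were followed in LT-HSCs that carry or lack the aryl hydrocarbon receptor (AHR). The members were the genes of a list of 10 names with a probe set of their own on the array. This gave 9 genes of 22025 measured, since Slamf2 is an older name of Cd48. Each gene had 1 probe set that carried its name alone, and 1 more probe set that shared Cd34 with another gene was left out. Cells came from C57BL/6J female mice. AHRVav1 mice carried a Vav1-Cre transgene with floxed Ahr on both alleles (Vav1-cre+/-, Ahr fx/fx), so that Ahr was deleted in blood-forming cells, where the Vav1 promoter is active. AHRFX mice, the controls, carried the same floxed alleles without Cre. A group with Cre alone was not analysed here, so deletion and Cre cannot be told apart. Each array held the RNA of 1 animal, with 5 animals of either genotype aged 2 months and 6 of either aged 18 months.

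Marrow was depleted of cells with lineage markers, stained with antibodies to CD150, CD48, CD34, cKit and Sca-1, and sorted. The methods name the sorted cells Lin-CD48-CD150+. The abstract describes them as LSK cells (Lin-, Sca-1+ and cKit+) that were CD34-CD48-CD150+. The SLAM receptors CD150 (Slamf1), CD48 (Cd48) and CD244 (Cd244a) are immunoglobulin-family proteins of blood cells, and stem cells of the mouse marrow are known to carry CD150 while lacking the other two. cKit (Kit) is the receptor for stem cell factor and marks stem and progenitor cells. CD34, a sialomucin, and FLT3, a receptor tyrosine kinase, appear as adult mouse LT-HSCs turn into short-term stem cells and multipotent progenitors. EPCR (Procr), the endothelial protein C receptor, and a low level of THY1, a GPI-anchored protein, are carried by LT-HSCs. Fgd5, a reporter gene for LT-HSCs, encodes a protein inside the cell and not a surface protein. Sorting reads protein at the cell surface, while the array reads transcript.

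The arrays of the 2 ages differed in quality, which bears on every value at 2 months. Background was taken as the 95th percentile of the signals of 1401 olfactory and vomeronasal receptor probe sets on the same array. At 2 months it lay between 58.5 and 81.8 in AHRFX and between 68.7 and 95.7 in AHRVav1, on a linear signal scale. At 18 months it lay between 25.2 and 31.3. The correlation between arrays of a group, across probe sets, was 0.682 to 0.774 and 0.95 to 0.981, respectively. Ahr itself was below background on all arrays at 2 months. At 18 months its signal was 52 ± 24.9 (SD, n = 6) in AHRFX, above background on 5 of 6 arrays, while AHRVav1 arrays had 28 ± 7.62 (SD, n = 6), above it on 2 of 6. Whether its probes lie in the deleted part was not stated in the labels or methods.

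The genes sit at several places in the genome (RefSeq coordinates, assembly GRCm38.p6). The SLAM receptor genes lie together on chromosome 1, with Cd244a at chr1:171558718-171585316, Cd48 at chr1:171681245-171705258 and Slamf1 at chr1:171767131-171801184, separated by Ly9 and Slamf7 and followed by Cd84 and Slamf6. Cd34 is on the same chromosome at chr1:194938821-194961292. Kit (chr5:75574987-75656722) and Flt3 (chr5:147330741-147400489) share chromosome 5, Procr is at chr2:155751125-155755478, Fgd5 at chr6:91978827-92076005 and Thy1 at chr9:44043384-44048579.

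AHR with its partner ARNT binds DNA at the core letters GCGTG. These letters were searched on both strands in RefSeq promoter windows, which run from 250 bases before to 50 bases after a transcription start. A window was at hand for 8 of the 9 genes, all but Thy1. The core was found in 2 of the 8, Kit and Fgd5, against 32.4% of all 32851 mouse promoter windows. The Kit and Fgd5 windows were also rich in G and C (69.0% and 71.3%, with 20 and 37 CpG steps), and the other windows held 47.3% to 61.0%. The windows with the core are shown with those of the SLAM receptor genes used in the gate, Slamf1 and Cd48, each 5′ to 3′ on the strand of its gene, with the core in capitals. In Fgd5 the core is on the opposite strand and so reads CACGC.
Kit promoter, chr5:75574737-75575036, plus strand: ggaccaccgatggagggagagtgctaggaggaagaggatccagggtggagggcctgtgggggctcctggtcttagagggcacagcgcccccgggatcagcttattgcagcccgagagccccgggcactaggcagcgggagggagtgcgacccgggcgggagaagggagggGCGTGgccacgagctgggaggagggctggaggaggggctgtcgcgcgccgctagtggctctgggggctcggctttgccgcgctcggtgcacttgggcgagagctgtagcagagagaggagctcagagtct
Fgd5 promoter, chr6:91978715-91979014, plus strand: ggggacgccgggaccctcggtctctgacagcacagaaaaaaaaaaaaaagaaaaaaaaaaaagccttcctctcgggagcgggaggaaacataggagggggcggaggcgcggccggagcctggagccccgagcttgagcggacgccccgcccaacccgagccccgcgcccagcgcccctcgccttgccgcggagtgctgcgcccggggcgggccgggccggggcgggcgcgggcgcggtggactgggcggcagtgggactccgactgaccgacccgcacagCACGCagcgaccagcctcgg
Slamf1 promoter, chr1:171766882-171767181, plus strand: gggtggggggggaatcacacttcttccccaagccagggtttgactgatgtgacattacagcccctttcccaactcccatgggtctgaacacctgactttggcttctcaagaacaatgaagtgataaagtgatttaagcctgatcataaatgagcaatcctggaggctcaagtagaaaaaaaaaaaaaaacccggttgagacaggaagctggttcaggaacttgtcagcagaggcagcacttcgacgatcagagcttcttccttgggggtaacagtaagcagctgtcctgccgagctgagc
Cd48 promoter, chr1:171681742-171682041, plus strand: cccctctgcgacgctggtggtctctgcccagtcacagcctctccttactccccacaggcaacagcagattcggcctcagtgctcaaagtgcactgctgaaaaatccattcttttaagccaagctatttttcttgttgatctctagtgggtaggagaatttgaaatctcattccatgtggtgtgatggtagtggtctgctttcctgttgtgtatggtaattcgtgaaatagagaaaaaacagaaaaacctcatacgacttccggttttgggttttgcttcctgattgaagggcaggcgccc
Positions were counted without a 0, upward from the transcription start itself and downward from the base before it. The first base of the match lies at -80 in Kit and at 31 in Fgd5. A second Kit start has it at -84. Of other letters searched, the GATA motif AGATAA was in none of the 8 windows (11.2% of all windows), and the RUNX motif TGTGGT was in the Cd48 window alone, at -76 (16.8% of all). A match describes the letters and not a bound site.

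Slamf1, the gene of the CD150 protein that cells had to carry, was above background on all 12 arrays at 18 months and on 6 of 10 at 2 months. In AHRFX at 2 months its signals were 7.2, 97.0, 120.2, 186.2 and 411.4, and in AHRVav1 2.5, 5.1, 18.3, 175.8 and 208.5. Slamf1 was above background on 4 of 5 of these AHRFX arrays and on 2 of 5 AHRVav1 arrays. The values below background were 7.2 in AHRFX and 2.5, 5.1 and 18.3 in AHRVav1, and the groups overlapped. At 18 months the lowest, median and highest signals were 72.0, 114.3 and 142.7 in AHRFX and 80.1, 104.9 and 157.5 in AHRVav1, so the genotypes covered nearly the same range.

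Cd48 encodes the protein that sorted cells had to lack, and its transcript was nevertheless above background on all 12 arrays at 18 months. Its lowest, median and highest signals there were 167.8, 452.2 and 511.5 in AHRFX. In AHRVav1 they were 87.6, 361.4 and 574.7. At 2 months the signals were 3.1, 4.5, 23.4, 40.7 and 219.5 in AHRFX and 4.4, 36.7, 81.6, 87.3 and 178.9 in AHRVav1, above background on 4 of 10 arrays. Genes of progenitors that the gate leaves out were present as well: of 14 measured, among them Mpo and Elane of granulocyte and monocyte progenitors and Dntt of lymphoid ones, 12 were above background on every 18-month array. Old AHRFX arrays had a summed signal of these 14 genes of 10550 to 19030 and old AHRVav1 arrays one of 7524 to 17650, against 4370 to 7578 and 6400 to 9375 at 2 months. Their part in the Cd48 signal was not tested.

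Cd244a, the third SLAM receptor, was above background on 0 of 10 arrays at 2 months, where AHRFX signals were 11.2 to 43.1 and AHRVav1 signals 14.2 to 29.1. At 18 months it was above background on 3 of 6 arrays of each genotype. The lowest, median and highest signals were 5.7, 25.95 and 53.2 in AHRFX and 8.0, 30.4 and 67.6 in AHRVav1, which places the gene at the edge of what these arrays measured.

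Kit and Cd34 were the members above background on every array of both ages. Kit, for which cells were stained, had signals of 631.3, 743.9, 755.6, 895.7 and 1087.2 in AHRFX and 791.6, 1055.3, 1093.5, 1151.6 and 1218.0 in AHRVav1 at 2 months. At 18 months the lowest, median and highest were 784.1, 926.2 and 1196.5 in AHRFX and 635.4, 874.75 and 944.7 in AHRVav1. The AHRVav1 arrays thus lay mostly to the upper side at 2 months and to the lower side at 18 months, with overlap at both. Both genotypes kept Kit far over background.

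CD34 is absent from the surface of adult mouse LT-HSCs by the usual definition, and the abstract gives the sorted cells as CD34-. The Cd34 transcript was nevertheless measured on every array. At 2 months its signals were 383.0, 611.6, 772.3, 946.2 and 1453.0 in AHRFX and 721.2, 1331.2, 1469.5, 1511.2 and 1560.2 in AHRVav1. All but 1 of the AHRVav1 arrays thus lay above all but 1 of the AHRFX arrays. At 18 months the lowest, median and highest were 911.1, 1200.2 and 1357.8 in AHRFX and 623.6, 1043.8 and 1904.2 in AHRVav1, a wider spread in AHRVav1 on either side.

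Flt3 was above background on 1 of 10 arrays at 2 months. The signals were 8.1, 9.2, 10.2, 34.1 and 142.1 in AHRFX and 6.3, 12.7, 12.7, 15.9 and 17.2 in AHRVav1, so a single AHRFX array stood out. On the 18-month arrays it was above background on 12 of 12, with lowest, median and highest signals of 35.6, 59.2 and 171.9 in AHRFX and 40.4, 59.35 and 116.4 in AHRVav1. The medians of the genotypes were nearly equal.

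Procr and Thy1, whose proteins LT-HSCs carry, had low and scattered signals at 2 months. Procr was at 26.9, 33.8, 81.4, 126.7 and 261.6 in AHRFX and at 1.2, 2.5, 4.6, 54.9 and 196.8 in AHRVav1, above background on 4 of 10 arrays. Thy1 was at 0.0, 13.4, 14.8, 20.6 and 47.8 in AHRFX and at 17.8, 26.8, 36.5, 63.1 and 87.1 in AHRVav1, above background on 1 of 10. Most AHRVav1 arrays were thus on the low side for Procr and on the high side for Thy1, within overlapping ranges. At 18 months Procr had lowest, median and highest signals of 104.6, 160.9 and 299.2 in AHRFX and 64.6, 125.15 and 180.7 in AHRVav1. Thy1 had 60.2, 151.4 and 207.3 in AHRFX and 49.4, 136.4 and 207.8 in AHRVav1. Both genes were above background on all 12 of these arrays.

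Fgd5 was above background on 0 of 10 arrays at 2 months, where AHRFX signals were 13.3 to 24.3 and AHRVav1 signals 1.6 to 33.1. At 18 months it passed background on 5 of 6 AHRFX arrays and 3 of 6 AHRVav1 arrays. The lowest, median and highest signals were 29.1, 46.8 and 56.8 in AHRFX and 21.8, 28.6 and 37.6 in AHRVav1. The AHRVav1 arrays lay on the low side, and the ranges shared the interval from 29.1 to 37.6.

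**Figure D1:**
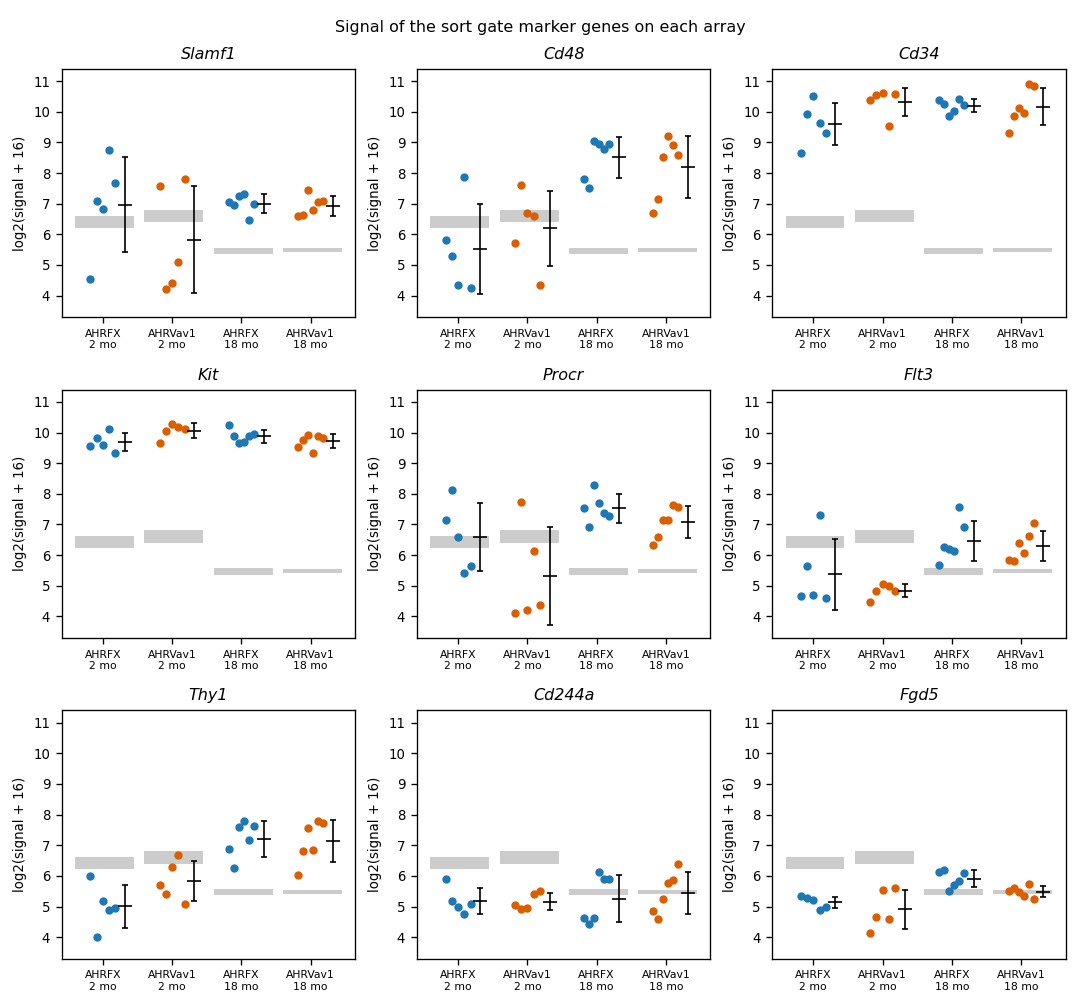
Signal of each gene on each array, as log2(signal + 16), in AHRFX (blue) and AHRVav1 (orange) mice at 2 and 18 months (n = 5, 5, 6 and 6). Each point is 1 animal, the black bar beside the points is the mean ± SD, and the grey band is the range of the arrays' background. Kit and Cd34 lie above the band in every group, while Cd244a and Fgd5 are above it on 0 of 10 arrays at 2 months.

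Replicates of a group were much closer for some genes than for others. At 2 months the SD of log2(signal + 16) within AHRFX ran from 0.19 in Fgd5, which was below background, to 1.55 in Slamf1, against a median of 0.48 over all probe sets, and 0.24 for Kit in AHRVav1 stood against 1.75 for Slamf1. At 18 months it ran from 0.21 to 0.78 in AHRFX and from 0.18 to 1.01 in AHRVav1, where the widest gene was Cd48. There, 7 of 9 genes in AHRFX and 8 of 9 in AHRVav1 had an SD over the median of all probe sets (0.24 and 0.21). In the order of group means AHRFX at 18 months came first for 6 of 9 genes, all but Cd34, Kit and Cd244a. Of the 36 exact permutation tests between groups, 9 gave a p under 0.05, and 7 to 12 did with 1 array left out. Of the 9, 8 were between ages, 3 of 9 genes in AHRFX (52.8% of all probe sets) and 5 of 9 in AHRVav1 (55.5%), where age cannot be told apart from array quality. Between genotypes it was 1 of 9 genes at 18 months (6.36% of all probe sets) and 0 of 9 at 2 months (5.06%). All 27 pairs of neighbouring groups in these orders had overlapping ranges.

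Whether aged LT-HSCs without AHR differ in these genes was asked by setting the genotypes against each other at 18 months. Fgd5 was 1.34-fold lower in AHRVav1 on the log2(signal + 16) scale, by a log2 difference of -0.43 (SE 0.14, 95% confidence interval -0.73 to -0.12). All 6 AHRVav1 arrays lay under the AHRFX mean (exact permutation p = 0.0173, two-sided). This did not pass limma over all 26688 probe sets (unadjusted p = 0.00864, Benjamini-Hochberg adjusted p = 0.793). Without the 18-month arrays with replicate numbers 1 and 2 the difference was -0.34 (exact permutation p = 0.0857, n = 4 per group, the smallest p possible being 0.0286). Procr, which endothelial cells and LT-HSCs share, had a difference of -0.45 (SE 0.25, interval -0.98 to 0.07, exact permutation p = 0.145). Of markers of endothelial cells, 6 of 6 (Pecam1, Cdh5, Kdr, Emcn, Stab2 and Fabp4) had a difference under 0 (49.9% of all probe sets). Limma called 0 of them (0% of all probe sets), and 2 had an unadjusted p under 0.05 (6.18%). Their summed signal was 297 to 567.3 in AHRVav1 and 399.5 to 910.3 in AHRFX, which overlap. At least 2 of them were above background on every 18-month array, none was below it on all, and their part in the result was not tested. A median under 0 at 18 months was found in 11 of the 12 gene lists followed beside the members. At 2 months 5 of 6 endothelial genes had a difference above 0 (median 0.46).

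For the other genes the 18-month difference was -0.32 in Cd48 (SE 0.40, interval -1.18 to 0.53), -0.17 in Kit (SE 0.13, -0.44 to 0.10) and -0.17 in Flt3 (SE 0.28, -0.77 to 0.44). It was -0.09 in Thy1 (SE 0.31, -0.74 to 0.57), -0.07 in Slamf1 (SE 0.17, -0.44 to 0.30) and -0.03 in Cd34 (SE 0.22, -0.50 to 0.44). Cd244a had 0.19 (SE 0.35, -0.54 to 0.92). The interval was narrow for Kit and wide for Cd48, whose difference ran from -0.53 to -0.025 with 1 array left out, the latter without AHRVav1 replicate 1. In all, limma called 0 of 9 genes (0% of all probe sets) and 1 had an unadjusted p under 0.05 (6.18% of all probe sets). A difference under 0 was found in 8 of 9 genes, with a median of -0.17, against 49.9% of all probe sets and a median of 0.00. Slamf1 and Cd34 turned to 0.08 and 0.32 without arrays 1 and 2. With 1 array left out Flt3 ranged from -0.32 to 0.053 and Thy1 from -0.28 to 0.13. The direction of Slamf1, Cd34, Flt3 and Thy1 is thus not settled.

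The same comparison at 2 months gave larger but less certain differences. Thy1 (0.84, SE 0.41, interval -0.06 to 1.74) and Cd34 (0.73, SE 0.35, -0.03 to 1.5) were on the higher side in AHRVav1, each with an exact permutation p = 0.0952. Kit had 0.37 (SE 0.20, -0.07 to 0.81, exact permutation p = 0.0635), with 4 of 5 AHRVav1 arrays over the AHRFX mean, and Cd48 0.67 (SE 0.76). Procr (-1.28, SE 0.77) and Slamf1 (-1.15, SE 0.93) were on the lower side with exact permutation p = 0.183 and p = 0.333, and their intervals, -2.98 to 0.43 and -3.19 to 0.89, cover large changes either way. Flt3 had -0.54 (SE 0.47), Fgd5 -0.22 (SE 0.29) and Cd244a -0.02 (SE 0.24), of which Fgd5 and Cd244a were below background in both genotypes. Flt3 was so on every AHRVav1 array and Thy1 on every AHRFX array, and no lower limit on either fold can be given. Thy1 was above background on only 1 of 5 AHRVav1 arrays, and background ran higher in AHRVav1 (68.7 to 95.7) than in AHRFX (58.5 to 81.8). Flt3 went to -0.058 without AHRFX replicate 4 and Fgd5 to -0.027 without AHRVav1 replicate 1. With 5 animals per group the smallest exact p possible was 0.00794. None of the 9 passed limma, with 0 called (0% of all probe sets), adjusted p-values of 0.966 to 0.993, and 0 at an unadjusted p under 0.05 (4.64% of all probe sets).

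**Figure D2:**
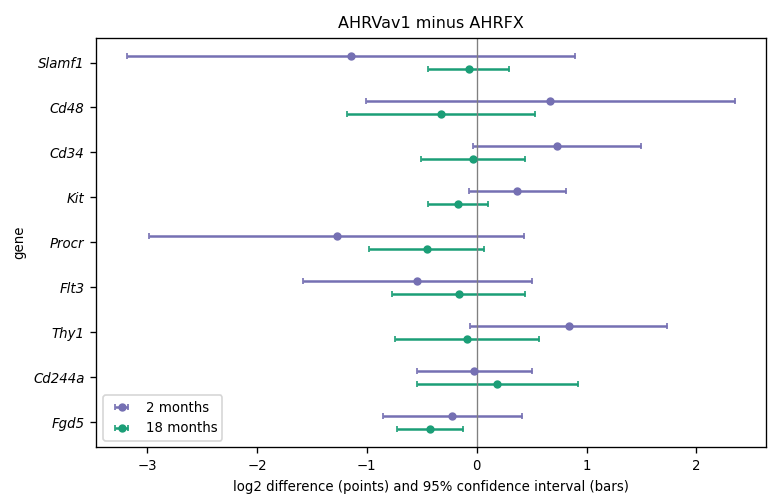
Log2 difference between AHRVav1 and AHRFX for each gene at 2 months (purple, n = 5 per group) and 18 months (green, n = 6 per group), with 95% confidence intervals from limma. The only interval that leaves out 0 is that of Fgd5 at 18 months (-0.73 to -0.12), and it does not pass adjustment over all probe sets.

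Whether the genotype difference itself changed with age was tested with all 4 groups in 1 fit. Kit had the largest such change relative to its error, with -0.54 (SE 0.24, interval -1.04 to -0.04, limma unadjusted p = 0.0349, adjusted p = 0.602), since its AHRVav1 minus AHRFX difference was 0.37 at 2 months and -0.17 at 18 months. Cd34 had -0.77 (SE 0.42), Thy1 -0.93 (SE 0.55), Cd48 -0.99 (SE 0.89), Slamf1 1.08 (SE 0.90) and Procr 0.82 (SE 0.79). Flt3 (0.37, SE 0.57), Cd244a (0.21, SE 0.47) and Fgd5 (-0.20, SE 0.31) were nearer to 0. Limma called 0 of 9 (0.0112% of all probe sets), and 1 had an unadjusted p under 0.05 (7.93% of all probe sets).

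Several of these genes had higher signals on the 18-month than on the 2-month arrays, where age cannot be told apart from array quality. In AHRFX, limma called Cd48 (log2 difference 2.98, SE 0.60, adjusted p = 0.00232), Thy1 (2.21, SE 0.37, adjusted p = 0.000797) and Fgd5 (0.78, SE 0.18, adjusted p = 0.00546) as higher at 18 months. These were 3 of 9 genes, where 20.2% of all probe sets were called higher and 24.2% lower. Exact permutation p was 0.00649 for Cd48, 0.00217 for Thy1 (the smallest possible) and 0.00433 for Fgd5, and 6 of 6 old arrays lay over the young mean for each. The ages did not overlap for Thy1 and Fgd5, as in 24.3% of all probe sets. Since Thy1 was not above background on any young AHRFX array, its difference reads as at least 1.81-fold higher. For Fgd5 no lower limit on the fold can be given. The old AHRFX signals of Fgd5 (29.1 to 56.8) all lay under the young AHRFX background (58.5 to 81.8). Cd34 (0.60, SE 0.28), Procr (0.93, SE 0.47) and Flt3 (1.08, SE 0.49) were not called (adjusted p = 0.0932, 0.115 and 0.0859), nor were Kit (0.20), Cd244a (0.08) and Slamf1 (0.03, interval -1.20 to 1.27). These young arrays decided 3 of the calls: Procr passed without AHRFX replicate 2 of 2 months (adjusted p = 0.0197), Cd34 without replicate 3 (adjusted p = 0.0173) and Flt3 without replicate 4 (adjusted p = 0.0055).

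In AHRVav1, Flt3 (1.45, SE 0.24, adjusted p = 0.000544), Cd48 (1.99, SE 0.60, adjusted p = 0.0169), Thy1 (1.29, SE 0.39, adjusted p = 0.0169) and Procr (1.76, SE 0.60, adjusted p = 0.0283) were higher at 18 months by limma. They made 4 of 9 genes, against 22.8% of all probe sets called higher. For Flt3 the ages did not overlap (28.4% of all probe sets), but no lower limit on its fold can be given, since it was below background on every young AHRVav1 array. The Thy1 call was lost with array weights (adjusted p = 0.0529). The Procr call was lost without any 1 of AHRVav1 replicates 1, 3 and 5 of 2 months or replicates 5 and 6 of 18 months (adjusted p = 0.0566 to 0.0692). Fgd5 (0.57, SE 0.25, adjusted p = 0.0737), Slamf1 (1.11, SE 0.63, adjusted p = 0.158), Cd244a (0.29) and Cd34 (-0.17) were not called. Kit had -0.35 (SE 0.17, adjusted p = 0.109), with 6 of 6 old arrays under the young mean (exact permutation p = 0.0368). Without replicate 1 of 2 months Kit (-0.45, adjusted p = 0.0395) and Slamf1 (1.55, adjusted p = 0.0471) passed. Slamf1 also passed without replicate 5 (adjusted p = 0.0325), as did Fgd5 without replicate 3 or 5 (adjusted p = 0.0263 and 0.0196).

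Age could not be told apart from the quality of the arrays. Background was higher and spread wider on all 2-month arrays, so each age difference is also a difference between these sets of arrays. Of 14 progenitor genes, 12 were called higher at 18 months in AHRFX and 0 lower (median 1.97), against 20.2% and 24.2% of all probe sets. In AHRVav1 8 were called higher and 1 lower (median 1.25), against 22.8% and 26.2% of all probe sets. The median of all probe sets was -0.11 in AHRFX and -0.09 in AHRVav1. Of the 14, 6 in either genotype were below background on every young array, so that their part of these medians rests on a floor. They were Il7r, Dntt, Cebpa, Fcgr2b and Csf1r in both genotypes, with Satb1 in AHRFX and Fcgr3 in AHRVav1. As lower limits, Csf1r, the receptor for macrophage colony-stimulating factor, was at least 3.09-fold higher in old AHRFX mice and at least 2.17-fold higher in old AHRVav1 mice. For Dntt, the terminal transferase of lymphoid cells, the limits were at least 1.36-fold and at least 1.05-fold higher. Satb1, a chromatin organizer of lymphoid progenitors, was at least 1.04-fold higher in AHRFX, and Cebpa, a myeloid regulator, at least 1.79-fold higher in AHRVav1. The part of such cells in the age differences was not tested. Without the 18-month arrays with replicate numbers 1 and 2 the same 3 genes in AHRFX and 4 in AHRVav1 were called higher, with Cd48 at 3.41 and 2.62.

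**Figure D3:**
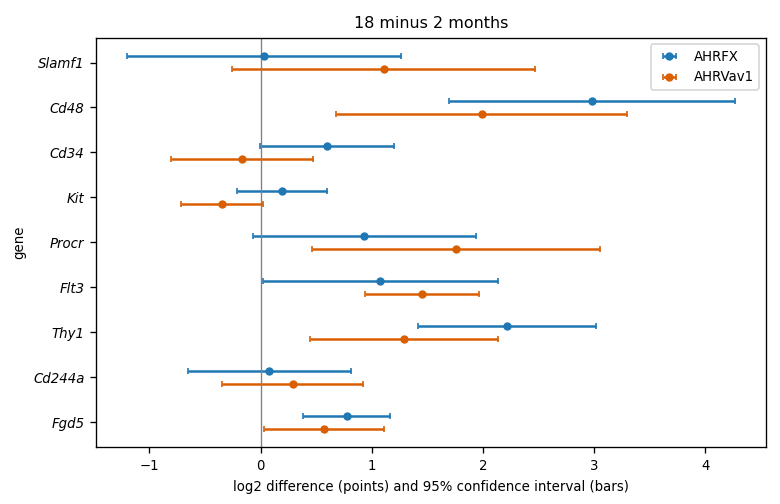
Log2 difference between 18 and 2 months for each gene in AHRFX (blue, n = 6 and 5) and AHRVav1 (orange, n = 6 and 5), with 95% confidence intervals from limma. Cd48 and Thy1 pass the adjusted test in both genotypes, Fgd5 in AHRFX, and Flt3 and Procr in AHRVav1.

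Among the 18-month arrays, those with replicate numbers 1 and 2 stood apart from numbers 3 to 6, and of the 9 genes Cd48 had the widest gap between them. In AHRFX its signals were 167.8 and 205.7 on arrays 1 and 2 and 427.5 to 511.5 on the other 4. In AHRVav1 they were 87.6 and 127.3 against 350.0 to 574.7. Arrays 3 to 6 were thus 2.42-fold and 3.69-fold higher on the log2(signal + 16) scale, with no overlap in either genotype. Thy1 had the same order in both genotypes (60.2 and 100.5 against 127.1 to 207.3 in AHRFX, 49.4 and 95.4 against 99.7 to 207.8 in AHRVav1). Arrays 1 and 2 were lowest in both genotypes for these 2 of 9 genes and for 3.51% of all probe sets. In AHRVav1 alone Slamf1, Cd34, Procr, Flt3 and Cd244a were also lowest on arrays 1 and 2, which made 7 of 9 genes (12.9% of all probe sets). Kit did not follow this split, and Fgd5 was higher on arrays 1 and 2 in AHRFX (54.0 and 56.8 against 29.1 to 52.8). These sets of arrays were compared after their values were seen, and no test was made of them.

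Other genes differed between these sets of arrays, in either direction. The summed progenitor genes were at 10550 and 10650 on arrays 1 and 2 against 16000 to 19030 on the others in AHRFX, and at 7524 and 9017 against 16150 to 17650 in AHRVav1. The sum of 4 erythroid genes (Klf1, Slc4a1, Ermap and Car1) was 6092 and 6131 on AHRVav1 arrays 1 and 2 against 383.5 to 1297 on the others, and overlapped in AHRFX (1588 and 2546 against 921 to 2132). In AHRFX, sums were higher on arrays 1 and 2 for the LT-HSC identity genes (8514 and 9339 against 6583 to 7758), for other LT-HSC surface markers (10500 and 10860 against 8187 to 9003) and for megakaryocyte genes (2319 and 2967 against 1685 to 2109). In AHRVav1 the identity genes were lower there (5296 and 5466 against 5517 to 7324), and the other sums overlapped (8256 and 8695 against 7582 to 8773, and 1962 and 2219 against 1205 to 2076). The labels and methods do not say what the numbers 1 and 2 stand for, and their part in the spread of Cd48 was not tested. On arrays 3 to 6 alone the Cd48 signal was 473.4 ± 34.6 (SD, n = 4) in AHRFX. The AHRVav1 value was 441.7 ± 103 (SD, n = 4), and the log2 difference -0.12 (exact permutation p = 0.429, smallest possible 0.0286).

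**Figure D4:**
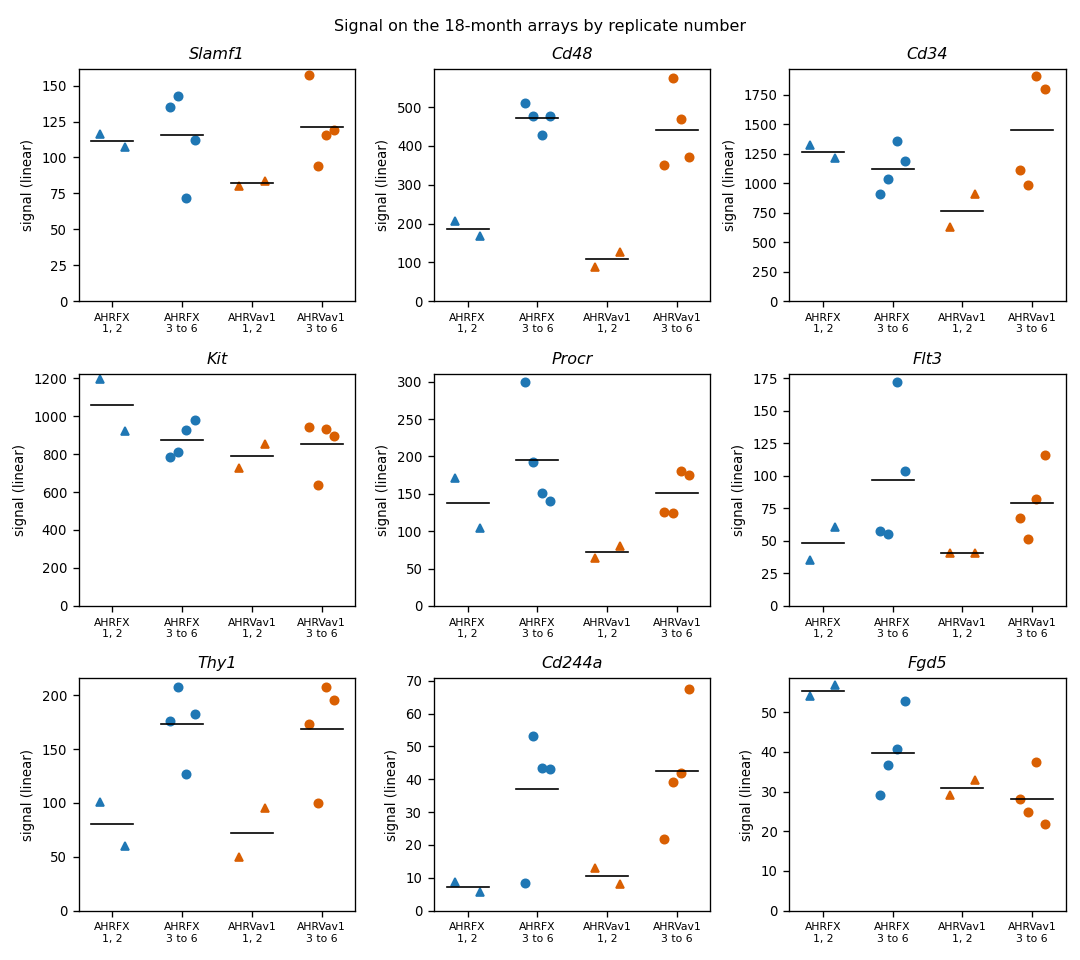
Signal on a linear scale on the 18-month arrays, split into replicate numbers 1 and 2 (triangles) and 3 to 6 (circles), in AHRFX (blue) and AHRVav1 (orange), with a line at the mean of each set (n = 2 or 4). For Cd48 and Thy1 both triangles lie under all circles of the same genotype, which is not so for Kit.

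Related genes were described from lists. Of 10 further members and adaptors of the SLAM family, 0 were called between genotypes at either age, and medians were 0.07 at 2 months and -0.11 at 18 months. With age 4 of 10 were called higher (20.2% of all probe sets) and 1 lower (24.2%) in AHRFX, and 3 higher (22.8%) and 0 lower (26.2%) in AHRVav1. Ly9 and Slamf7, neighbours of Cd48 on chromosome 1, were called higher in both genotypes (limma adjusted p = 2.31e-05 and 0.00632 in AHRFX, 0.000562 and 0.0176 in AHRVav1). Both were below background on every young array. Ly9 was at least 1.27-fold higher in AHRFX, and no lower limit can be given for Ly9 in AHRVav1 or for Slamf7. The adaptor genes Sh2d1a, Sh2d1b1 and Sh2d1b2, which carry SLAM signals in lymphocytes, were above background on 0 arrays. The Cd84 difference between genotypes at 18 months was -0.29 (SE 0.15, limma adjusted p = 0.832).

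Of 11 measured ligands and direct partners of the members, 0 were called between genotypes. At 18 months 10 of 11 had a difference under 0 (median -0.13), against 49.9% of all probe sets. Without the 18-month arrays 1 and 2 it was 7 of 11 (median -0.085), against 48.3% of all probe sets. On all arrays thrombomodulin (Thbd), the partner of EPCR in activating protein C, had -0.60 (SE 0.18) and E-selectin (Sele), an endothelial ligand of CD34-type mucins, -0.53 (SE 0.23). Without arrays 1 and 2 they had -0.46 and -0.26. Sele was above background on only 2 of 6 AHRVav1 and 4 of 6 AHRFX arrays of 18 months. Stem cell factor (Kitl), the ligand of cKit, had -0.22 (SE 0.11) and was above background on 0 arrays. With age 7 of 11 partners were called higher in AHRFX (20.2% of all probe sets) and 6 in AHRVav1 (22.8%), with 0 lower (24.2% and 26.2%). They included Thbd in AHRFX, at least 2.26-fold higher (limma adjusted p = 5.38e-06). In AHRVav1 they included Selp, which encodes P-selectin and was at least 3.6-fold higher (adjusted p = 0.000183), and Ptpn11, a phosphatase downstream of cKit and FLT3, at least 1.44-fold higher (adjusted p = 4.25e-05). All 3 are lower limits, since the young group was below background on all its arrays.

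Of 18 other surface markers of LT-HSCs, 13 had a difference under 0 at 18 months between genotypes (median -0.14, with 49.9% of all probe sets under 0), and of 16 LT-HSC identity genes inside the cell 14 did (median -0.28). None of these was called, and 3 and 7 had an unadjusted p under 0.05 (6.18% of all probe sets). Alcam, Neo1 and Adgrg1 had -0.50 (SE 0.19), -0.61 (SE 0.23) and -0.25 (SE 0.09). Pdzk1ip1, Angpt1 and Mecom had -0.39 (SE 0.12), -0.47 (SE 0.15) and -0.43 (SE 0.16). The identity genes were, in sum, higher on arrays 1 and 2 in AHRFX and lower on them in AHRVav1, without overlap. Without arrays 1 and 2, 12 of 18 surface markers (median -0.08) and 10 of 16 identity genes (median -0.13) had a difference under 0, against 48.3% of all probe sets, and Pdzk1ip1, Angpt1 and Mecom had -0.21, -0.29 and -0.22. At 2 months the medians were -0.31 and 0.19, with 0 called. With age 5 of 18 surface markers were called higher and 1 lower in AHRFX, and 5 higher and 2 lower in AHRVav1. Of the 16 identity genes 3 were called higher and 2 lower in AHRFX, against 0 higher and 5 lower in AHRVav1. Over all probe sets 20.2% were called higher and 24.2% lower in AHRFX, and 22.8% and 26.2% in AHRVav1. Among the progenitor genes 12 of 14 had a difference under 0 between genotypes at 18 months (median -0.20) and 6 of 14 at 2 months (median 0.13, with 51.4% of all probe sets under 0), with 0 called. In bulk samples fewer cells of a type and less RNA per cell cannot be told apart.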

How the data were processed

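LT-HSCs were sorted from each animal, their RNA was amplified with a WT-Ovation PicoSL kit, and cDNA was hybridized to a Genechip Mouse Gene 2.0 ST array. The table holds linear intensities of probe sets, deposited as the authors obtained them from the IterPLIER algorithm (background subtracted, quantile normalized). The submitters' processing notes name Affymetrix Expression Console. Its version, array dates and any filter were not stated there, and arrays carry no read depth, so their number limits the precision. The table held 26688 probe sets, of which 23321 had 1 gene symbol in the platform annotation, 1802 several and 1565 none. Promoter sequences and coordinates came from RefSeq (GRCm38.p6).

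Signals were transformed as log2(signal + 16) and tested with limma 3.58.1 in R 4.3.3 (lmFit, eBayes with a mean-variance trend, no covariate) on the groups of each comparison, with all 4 groups for the change of the genotype effect with age. P-values were adjusted by Benjamini-Hochberg over all probe sets (threshold 0.05). Each gene was also compared by an exact two-sided permutation test of group means (36 tests in all, SciPy 1.17.1). Above background means above the 95th percentile of the receptor probe sets of the array. A fold against a group with no array above background is given as a lower limit, the brighter group's mean against, per array, the higher of the lowest signal above background and the gene's own value, and as none where this falls under 1. The offset understates changes near background.

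The genes and lists were chosen with earlier results of these data known. All members are named, and from each of 12 further lists (114 of 126 genes measured) at most the 3 genes with the smallest p in a comparison. Ly6a, which encodes Sca-1, is not reported here. Results were recomputed with array weights, with an offset of 1, on the 13344 brightest probe sets, on those with 1 symbol, after another quantile normalization, without the trend, with all 4 groups, a replicate block, the methods' t-test, and leaving out each array or the 18-month arrays 1 and 2. Replicate numbers were not used to pair samples, since no label says what they mark.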

Additional observations from a re-analysis of the deposited data

Results flagged for a closer look

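Of 36 sets of values tested (9 genes in 4 groups), 1 held an array farther from the others than Dixon's 95% limit allows. This was Cd34 in AHRVav1 mice at 2 months, where replicate 4 had a signal of 721.2 and the other 4 arrays 1331.2 to 1560.2. The test was made on the log2 scale with offset, not on these linear signals. On that log2 scale the gap to the nearest array was 0.793 of the whole range, against a limit of 0.71. By chance about 1 in 20 such sets would pass it.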

How the results depend on the processing

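Between the genotypes 0 of 9 genes were called at either age under every alternative run. Over all probe sets the count was 0 at 2 months, 113 with all 4 groups in one fit, and 0 to 1 at 18 months with 1 array left out. For the change of the genotype effect with age it was 3, and 5 in the 13344 brightest probe sets, 5 without a trend, 6 with array weights, 0 without the 18-month arrays 1 and 2, and 0 to 13 with 1 array left out. With age 11850 (AHRFX) and 13051 (AHRVav1) were called, 6253 and 6959 in the 13344 brightest (which leaves out Cd244a and Fgd5) and 7278 in AHRFX with a replicate block. Quantile normalization again lowered the higher share of calls from 45.4% to 35.2% in AHRFX and from 46.5% to 36.4% in AHRVav1 and the median of all probe sets to -0.20 in both, and left the same 3 and 4 genes called. With 1 array left out 3 to 4 genes were called in AHRFX and 3 to 5 in AHRVav1.

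No label says what the replicate numbers mark. Between genotypes, same-numbered arrays of 18 months correlated at 0.17 to 0.252 in 5 of 6 pairs and at -0.124 in the other, those of 2 months at 0.00465 to 0.0621, and 3 of 6 and 2 of 5 correlated best with their own number. These values are not correlations of the signals themselves, which within groups were 0.95 to 0.981 at 18 months and 0.682 to 0.774 at 2 months. With the replicate block 1 gene was called with age in AHRVav1 in place of 4, Cd48, Thy1 and Procr having an adjusted p = 0.0552, 0.0627 and 0.0656. Procr was also lost with the methods' t-test (adjusted p = 0.0631) and Thy1 with array weights (adjusted p = 0.0529), while all 4 groups in one fit added Flt3 in AHRFX (adjusted p = 0.0328) and Fgd5 in AHRVav1 (adjusted p = 0.0351). The causes were not tested.

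Signs turned for uncalled values near 0. Between genotypes at 2 months Cd244a went to 0.035 with array weights and ranged from -0.13 to 0.15 with 1 array left out. At 18 months Cd34 went to 0.080 with array weights and 0.32 without arrays 1 and 2 (-0.18 to 0.14 with 1 left out), Slamf1 to 0.082 without arrays 1 and 2, and Flt3 and Thy1 ranged from -0.32 to 0.053 and -0.28 to 0.13. With age in AHRFX Slamf1 went to -0.14 (quantile again) and -0.20 (array weights), ranging from -0.58 to 0.47, and Cd244a to -0.035 (offset of 1), -0.055 (quantile again) and -0.046 (replicate block), ranging from -0.091 to 0.25. With age in AHRVav1 Cd34 went to 0.12 without arrays 1 and 2 and ranged from -0.37 to 0.0027. For the change of the genotype effect Fgd5 went to 0.11 with an offset of 1 and Flt3 ranged from -0.11 to 0.59. Signal over background limits Cd244a and Fgd5 most, above it on 0 of 10 arrays at 2 months and on 6 and 8 of 12 at 18 months.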

Other observations

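Other marrow cell types were followed by their markers, since a gate can hold some of them. Between genotypes 0 genes of these lists were called at either age. At 18 months a difference under 0 was found in 6 of 6 mast cell and basophil genes (median -0.41, with Fcer1a, the IgE receptor chain, at -0.92), 6 of 6 endothelial genes (median -0.42, with Fabp4 at -1.04) and 5 of 5 megakaryocyte genes (median -0.37). It was found in 8 of 10 granulocyte and monocyte, 6 of 8 T and NK cell, 5 of 6 B cell and 1 of 4 erythroid genes, against 49.9% of all probe sets. Without arrays 1 and 2 these counts were 6 of 6 mast cell, 5 of 6 endothelial, 4 of 5 megakaryocyte and 4 of 4 erythroid genes. They were 9 of 10 granulocyte and monocyte, 7 of 8 T and NK cell and 5 of 6 B cell genes, against 48.3% of all probe sets. At 2 months the medians were -0.35, 0.46 and -0.44 for mast cell, endothelial and megakaryocyte genes, and -0.12 to 0.12 for the others. With age in AHRFX 3 genes each of the mast cell, endothelial, megakaryocyte, granulocyte and erythroid lists were called higher, with Car1, an erythroid carbonic anhydrase, at 4.46 and Pf4, a platelet chemokine, at 1.79. Of these, Ms4a2, Kdr, Stab2, Adgre1, Cd14, Ermap and Klf1 were below background on every young AHRFX array. Ermap was at least 1.82-fold and Klf1 at least 1.6-fold higher, and no lower limit can be given for the rest. Of the B cell genes 0 were called higher and 2 lower, and of the T and NK cell genes 1 higher and 3 lower. The 2 B cell genes were Pax5, above background on 1 young array and 0 old ones, and Ms4a1, below it at both ages. In AHRVav1 the counts higher and lower were 4 and 1 of 6 (mast cell), 0 and 1 of 6 (endothelial) and 3 and 0 of 5 (megakaryocyte). They were 3 and 1 of 10 (granulocyte), 2 and 0 of 4 (erythroid), 0 and 2 of 6 (B cell) and 2 and 2 of 8 (T and NK cell). Among the genes called higher in AHRVav1, Ms4a2, Cpa3, Adgre1, Itgam, Cd14, Itgb3, Ppbp, Ermap and Cd3e were below background on every young AHRVav1 array. Over all probe sets 20.2% were called higher and 24.2% lower with age in AHRFX, and 22.8% and 26.2% in AHRVav1. Several of the list counts are near these shares.

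The genes whose pattern was most like that of a member were found among 13154 probe sets over the 12 arrays of 18 months, as the Pearson r of deviations from the group mean. These values are descriptions, and the 12 arrays share the split of numbers 1 and 2. Cd48 was matched most closely by Anxa1, an annexin (r = 0.988), Ly86, a partner of a Toll-like receptor relative (0.986), and Il6st, the shared signalling chain of the interleukin-6 family (0.986). On the 8 arrays 3 to 6 these were 0.793, 0.721 and 0.798. Kit was matched by Col16a1 (0.927, and 0.906 on the 8 arrays) and Stat4 (0.923, 0.959). Cd34 was matched by Dlg4 (0.952, 0.973) and Gcnt2 (0.938, 0.966), and Slamf1 by Trim56 (0.892, 0.862) and Sh2d5 (0.887, 0.845). Procr was matched by Slc25a45 (0.924, 0.773) and Srpk2 (0.922, 0.862), and Flt3 by Fnbp1 (0.944, 0.918) and Atp2b1 (0.922, 0.862). Fgd5 was matched by Rab3gap1 (0.939, 0.909). The 8 arrays are part of the 12 on which these matches were picked, so their values are no separate check.

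Of 36 pairs of members, 0 passed a permutation test of Pearson's r after Benjamini-Hochberg adjustment over the 36, either on all 12 arrays of 18 months or on the 8 arrays 3 to 6. At an unadjusted p under 0.05 there were 8 pairs on the 12 arrays and 1 on the 8 arrays, Cd34 with Flt3.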
